A study of Cynodon dactylon with 6 samples.

Results

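The 144 unigenes described here were raised in bermudagrass leaves after 2 h at 42 °C and were still raised, within 2-fold of that level, after 12 h. They are 144 of 111743 unigenes, the gene-level units to which the reads had been assigned. They were chosen by their mean read counts in the 3 groups. Counts were divided by a size factor for each library (the median ratio to the geometric mean over 18038 unigenes with at least 10 reads in every library), which gives the scaled reads used throughout, and 1 was added to each group mean. A member had a mean of at least 80 at 2 h, at least 4 times the control, and a 12 h mean above 0.5 times and below 2 times that at 2 h. A further limit in the rule, of 2 times the control at 12 h, follows from the others. Because all 3 group means made the choice, the levels and folds of the members are a description and carry no test.

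The plants were 10-day-old wild-type seedlings of Cynodon dactylon, a grass of warm climates grown as turf, and leaf RNA was sequenced in 6 libraries. The groups were unheated controls taken at 0 h, leaves after 2 h at 42 °C, and leaves after 12 h at 42 °C, with 2 replicates each. No unheated leaves of 2 h or 12 h were analysed here, so the length of heating and the time of sampling cannot be told apart. The labels do not say whether replicates were separate plants or pools, so the spread given here is that between libraries and may be technical.

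Plants meet heat with heat shock transcription factors, which switch on genes for chaperones that keep proteins folded, and with enzymes that remove reactive oxygen. Many such transcripts peak early and then decline as the stress goes on, while others are kept at a raised level and are linked to acclimation. The deposited files do not pair unigene identifiers with gene names, no sequence of a unigene was used here, and so no member can be assigned to any of these families. Leaf identity could not be checked against marker genes for the same reason. A transcript can also change in bulk tissue because cell types change in proportion, and this cannot be told apart from a change of RNA per cell.

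Libraries held between 6313502 and 9326726 assigned reads. All 144 members passed the abundance filter of the test across unigenes, which kept 25828 in all. No replicate pair held one library deposited a second time: the chi-square of their counts, over its degrees of freedom, was 3.899, 6.42 and 7.98 for control, 2 h and 12 h.

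Reads of the members made up a larger share of each heated library than of each control. They took 0.277% and 0.356% of the reads of the controls, 1.60% and 1.84% after 2 h, and 1.86% and 2.14% after 12 h. Averages were 0.316% ± 0.0563, 1.72% ± 0.172 and 2.00% ± 0.197 (SD, n = 2 each). The heated libraries thus stood well above the controls, and both 12 h libraries lay a little above both 2 h libraries. These are shares of library totals, a scale on which the median tested unigene itself rose 1.54-fold from 2 h to 12 h. In scaled reads the members' median ratio of 12 h to 2 h was 0.766. The 10 members with the highest heated levels held 44.0% of the members' reads in the controls, 41.2% of them at 2 h and 36.0% at 12 h.

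**Figure D1:**
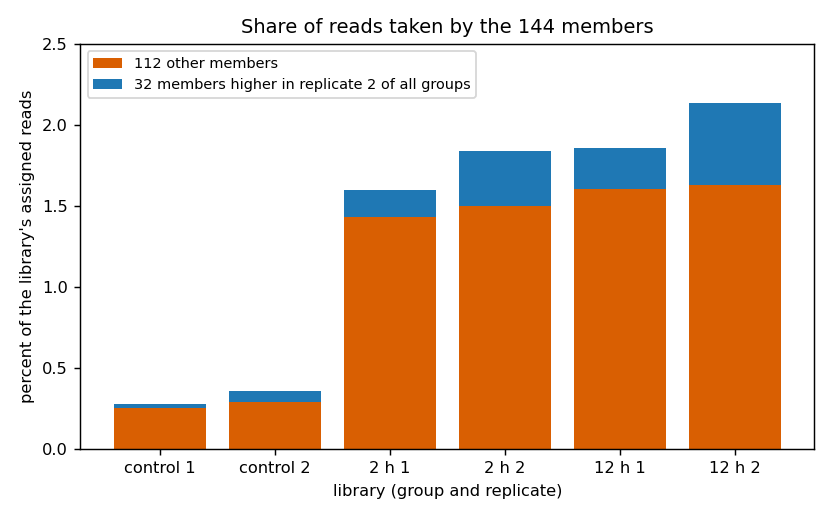
Percent of each library's assigned reads (vertical axis, from 0) that fell on the members, for the 6 libraries in order of time. Blue is the 32 members in which replicate 2 exceeded replicate 1 by more than 0.5 on the log2 scale in every group. Orange is the other 112 members. The blue part is larger in the second library of each group.

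Most members exceeded the limit of 4-fold by little, and a few by far. At 2 h the median ratio to the control was 5.10, with quartiles of 4.57 and 6.52. The ratio lay below 5 for 64 members, between 5 and 8 for 57, between 8 and 20 for 17, and at 20 or more for 6. At 12 h the median ratio to the control was 4.62, with quartiles of 3.30 and 6.91. The median ratio of 12 h to 2 h, which the rule bounds, was 0.759, 0.783, 0.808 and 0.771 in these 4 classes.

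Before heat the members ranged widely in abundance. Their median control mean was 68.0 scaled reads, the lowest 1.21 and the highest 2425. Control means lay below 10 for 8 members, between 10 and 50 for 56, between 50 and 200 for 46, and above that for 34. All but 1 member had reads in both unheated libraries.

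Every member had both 2 h libraries above both controls, and both 12 h libraries above both controls. Over all tested unigenes this held for 32.7% at 2 h and 44.3% at 12 h, but the rule used these contrasts and nothing is read from the difference. In 119 members the lowest heated library was at least 2 times the highest control (1 added to each), with 3.44% of all tested unigenes, and the rule bears on this count as well. By edgeR's quasi-likelihood test across all tested unigenes (Benjamini-Hochberg adjusted p below 0.05), 103 members were called higher at 2 h, where 14.3% of all tested unigenes were called higher. At 12 h 107 members were called higher, against 27.6% of all. Of the 144, 100 were called at both times, 3 at 2 h only, 7 at 12 h only and 34 at neither. Of those 34, 20 belong to the members with a steady replicate difference described further on.

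The 2 members with the highest 2 h means were both abundant before heat. Unigene c91532_g1 had 2314.5 and 2202 scaled reads in the controls, 13973 and 12260 after 2 h, and 8406 and 7206 after 12 h. Its means were 5.81 times the control at 2 h and 3.46 times at 12 h. Unigene c84206_g1 had 2275 and 2575 in the controls, 11932 and 10519 after 2 h, and 6654 and 7375 after 12 h, which is 4.63 and 2.89 times the control. In both, the 3 groups did not overlap: the controls were lowest, the 12 h libraries intermediate and the 2 h libraries highest.

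The 8 members that came next in heated level mostly followed that course. Among the first 10 the ratio of 2 h to control ran between 4.52 and 6.01, and the ratio of 12 h to 2 h between 0.595 and 1.11, with 8 of them lower at 12 h. The fourth had 1407 and 1276 scaled reads in the controls, 6634 and 6463 after 2 h, and 5084 and 4626 after 12 h. The ninth had 462 and 480 in the controls, 2910 and 2760 after 2 h, and 3136 and 2848 after 12 h, and its heated groups overlapped. Another pair among the 10 were uneven between replicates, and neither was called by the test at any time. The sixth had 660 and 1498 in the controls, 4310 and 5453 after 2 h, and 2142 and 3901 after 12 h, and its 12 h libraries were below both 2 h libraries. The seventh had 327 and 970 in the controls, 2626 and 3928 after 2 h, and 2565 and 4738 after 12 h.

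Scaled reads rank a long transcript above a short one with as many molecules, and FPKM, which divides by length, gave another order. On that scale the member at rank 27 by scaled reads led, with 570 and 642 FPKM in the controls, 2380 and 2018 after 2 h, and 3744 and 3192 after 12 h. Its implied length of 70.6 bases is short, and FPKM of so short a unigene is uncertain. In scaled reads it had 1833 and 1566 after 2 h, and 1598 and 1257 after 12 h. Its 12 h mean was thus 0.840 times that at 2 h, while its FPKM was higher at 12 h. FPKM also divides by sequencing depth, and on library totals the median tested unigene itself rose 1.54-fold from 2 h to 12 h. The next was the third by scaled reads, with 297 and 338 FPKM in the controls, 1893 and 1529 after 2 h, and 1669 and 1359 after 12 h. It comes from the same assembly component as the first, so the reads of this pair may be shared. Length was implied by count, FPKM and library total.

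The largest rises among members with at least 10 reads in each control belonged to c86879_g3 and c90908_g2. Unigene c86879_g3 had 15.8 and 23.0 scaled reads in the controls (16 reads each), 3238 and 2674.5 after 2 h, and 2847 and 1967 after 12 h. This is 145 times the control at 2 h and 118 times at 12 h, and its heated groups overlapped. Unigene c90908_g2 had 20.8 and 17.2 in the controls, 1596 and 1245 after 2 h, and 1174 and 739 after 12 h, or 71.0 and 47.8 times the control. Both were thus scarce before heat, and after it they ranked 13 and 32 among the members by heated level.

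Of the other 4 members with a 2 h ratio of at least 20, a pair were close to absent before heat. One had 0.990 and 1.44 scaled reads in the controls, 121 and 110 after 2 h, and 94.1 and 96.1 after 12 h. The other had 3.96 and 1.44 in the controls, 143 and 182 after 2 h, and 112 and 124 after 12 h. The third, near the lower edge of the window, had 45.6 and 35.9 in the controls, 1078 and 1007 after 2 h, and 611 and 460 after 12 h. The last had 113 and 122 in the controls, 2522 and 2351 after 2 h, and 3174 and 2878 after 12 h, and is the 1 of these 6 that was higher at 12 h.

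**Figure D2:**
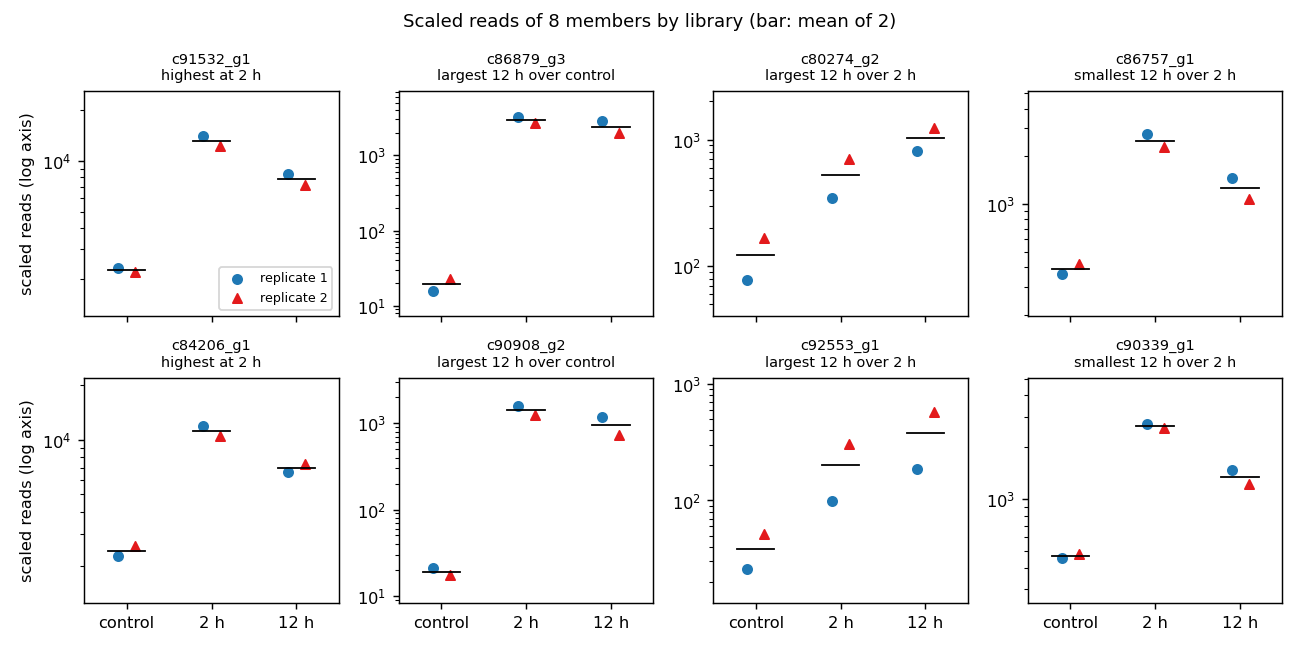
Scaled reads (log axis, with its own range in each panel) of 8 members in each library, by group; circles are replicate 1, triangles replicate 2, and bars the mean of 2. Heated libraries lie above the controls in every panel, and in c80274_g2 and c92553_g1 replicate 2 lies above replicate 1 in each group.

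The early level was held loosely, and on the scale of the rule more members had a lower than a higher mean at 12 h than at 2 h. The median ratio of 12 h to 2 h was 0.766, with quartiles of 0.617 and 1.12. It lay above 1 in 50 members and below 1 in 94. Both 12 h libraries were above both 2 h libraries in 20 members, where 40.4% of all tested unigenes showed this, and below them in 68, where 33.3% did; in the other 56 the groups overlapped. The test called 10 members higher at 12 h than at 2 h, with 22.9% of all tested unigenes called higher, and 45 lower, with 22.8% called lower. The 10 and 45 became 7 and 47 with DESeq2 size factors (21.9% and 23.6% of all called higher and lower). With DESeq2 they became 5 and 37 (10.8% and 15.6%). With no filter on low counts they became 17 and 50 (7.49% and 6.15%). With the replicate number as a block they became 22 and 66 (25.1% and 25%). The 10 also became fewer when any library but 2 h replicate 2 was left out, fits that leave 1 library in a group. With library totals alone the split turned round, to 28 members higher, with 48.2% of all tested unigenes called higher, and 10 lower, with 11.7% called lower. The rule bounded this contrast, so these shares are not read against each other. The 45 had ratios between 0.504 and 0.788 and the 10 between 1.23 and 1.85. For 89 members no difference was called, which does not show that the levels were equal, since their ratios ran between 0.522 and 1.95. The members are therefore better described as held within 2-fold than as a plateau.

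The ends of this range show its width. The highest ratios of 12 h to 2 h belonged to c80274_g2 and c92553_g1. Unigene c80274_g2 had 77.2 and 168 scaled reads in the controls, 349 and 707 after 2 h, and 816 and 1244 after 12 h, a ratio of 1.95. Unigene c92553_g1 had 25.8 and 51.7 in the controls, 99.3 and 303 after 2 h, and 185 and 571 after 12 h, a ratio of 1.88. Its heated groups overlapped, and without 12 h replicate 2 its log2 ratio of 0.91 became -0.12.

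The lowest ratios belonged to c86757_g1 and c90339_g1. Unigene c86757_g1 had 361 and 421 scaled reads in the controls, 2757 and 2275 after 2 h, and 1454 and 1082 after 12 h, a ratio of 0.504. Unigene c90339_g1 had 455 and 477 in the controls, 2732 and 2585 after 2 h, and 1469 and 1221.5 after 12 h, a ratio of 0.506. In both the 3 groups stood apart, and the 12 h libraries remained about 3 times the controls, at ratios of 3.24 and 2.88.

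Whether most members were lower or higher at 12 h than at 2 h depended on how the libraries were scaled. The log2 of the median ratio of 12 h to 2 h was -0.38 with the size factors of the rule, -0.41 with trimmed-mean scaling and 0.17 with library totals alone. With totals alone 93 members were higher at 12 h and 51 lower, and 23 reached 2 times the 2 h level. That scaling also moved the median of all tested unigenes, to 0.62 on the log2 scale, where it was 0.08 with the size factors. Relative to the median of all tested unigenes the members lay at -0.46, -0.47 and -0.45 under these 3 scalings. The rise at 2 h, relative to the same median, was 2.35, 2.35 and 2.36. A change of scaling moves all unigenes nearly alike, so these differences stay almost the same by arithmetic and their agreement is no support. With the size factors the median ratio of 12 h to 2 h was 1.06 for all tested unigenes. It was 0.903 for those at 80 or more at 2 h, which is nearer to the members.

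**Figure D3:**
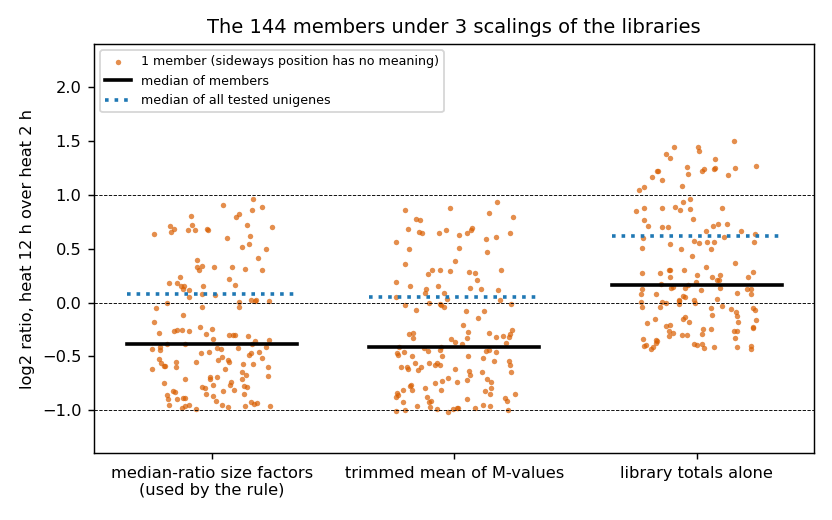
Log2 ratio of heat 12 h over heat 2 h (vertical axis) for each of the 144 members under 3 scalings of the libraries; black bars are the members' medians and dotted blue bars the median of all tested unigenes. The members' median is -0.38, -0.41 and 0.17 from left to right. It stays below the dotted bar in each, as a change of scaling moves both nearly alike.

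In all, 11405 unigenes reached a mean of 80 at 2 h, and 353 of these were at least 4 times the control. The members are one outcome at 12 h among these 353. Only 9 went on to at least 2 times the 2 h level, 110 had dropped to 0.5 times it or less while at least 2 times the control, and 90 were below 2 times the control. The median ratio of 2 h to control was 5.10 in the members, 5.66 in the 9, 13.6 in the 110 and 5.52 in the 90, so the first rise was largest by median in the partly kept set. At 2 h the members took 1.72% ± 0.172 of the reads, the 9 took 0.370% ± 0.0314, the partly kept 1.98% ± 0.167 and those not kept 1.65% ± 0.109. At 12 h these shares were 2.00% ± 0.197, 3.88% ± 0.443, 0.667% ± 0.0865 and 0.465% ± 0.0238 (SD, n = 2 each). The 9 thus took more reads than the 144 members at 12 h; the choice of the sets bears on these directions.

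**Figure D4:**
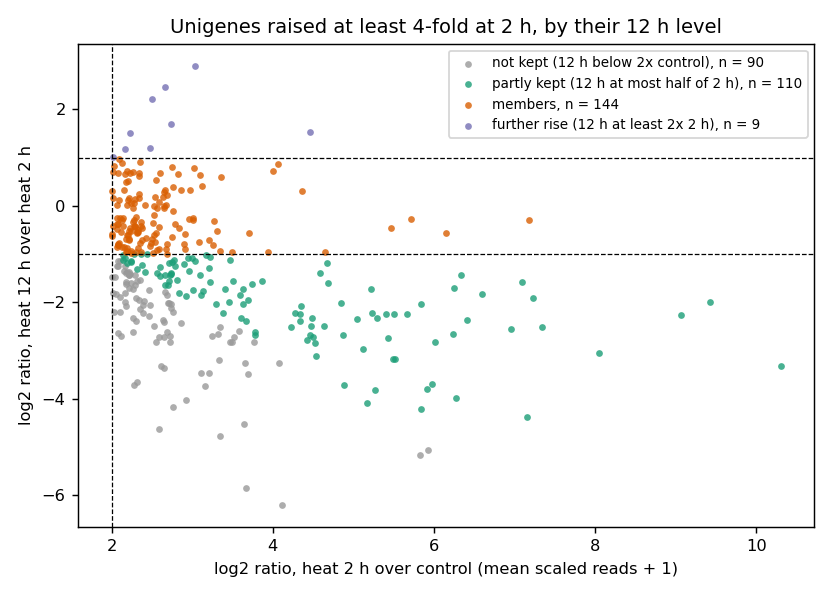
Log2 ratio of heat 12 h over heat 2 h (vertical) against log2 ratio of heat 2 h over control (horizontal) for the 353 unigenes raised at least 4-fold at 2 h, coloured by their 12 h level; dashed lines are the limits of the rule. Most of the 144 members, in orange, lie near the left limit.

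The limits cut through a continuous range. The 3 members nearest the limit of 4 had ratios of 2 h to control of 4.004, 4.02 and 4.02, and the nearest unigenes outside had 3.99, 3.97 and 3.96. At the level limit of 80 the nearest members stood at 80.75, 80.8 and 84.0 and the nearest outside at 78.9, 78.7 and 77.6. At the lower edge of the 12 h window the ratios were 0.504, 0.506 and 0.512 inside and 0.499, 0.498 and 0.497 outside. At the upper edge they were 1.95, 1.88 and 1.85 inside and 2.02, 2.26 and 2.30 outside.

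The difference between the 2 replicates of a group, which the group means in the rule do not use, set a subset of members apart. In 32 of the 144, or 22.2%, replicate 2 exceeded replicate 1 by more than 0.5 on the log2 scale (a factor of 1.41) in each of the 3 groups. Among all 11405 unigenes with a mean of at least 80 at 2 h this held for 104, or 0.912%. It held for 2 of the 110 partly kept unigenes, for none of the 90 not kept and for none of the 9 that were 2-fold higher at 12 h. The reverse, replicate 1 higher in every group by as much, was found in no member, in 5 of the partly kept, in 1 of those not kept and in 9 of the 11405. Over all 25828 tested unigenes both directions were nearer in number, with 303 higher in replicate 2 and 223 higher in replicate 1. The 32 were picked by this difference and get no test, and whether the members differ in it from other unigenes was not tested.

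In these 32 the difference was about 2-fold in each group. The median of replicate 2 over replicate 1 was 2.30 for controls (range 1.43 to 11.1), 2.08 for 2 h (1.48 to 3.49) and 2.04 for 12 h (1.45 to 4.05). In the other 112 members the medians were 1.11, 0.975 and 0.959. The 32 took 0.0274% and 0.0688% of the reads of the controls, 0.164% and 0.342% after 2 h, and 0.259% and 0.511% after 12 h. The other 112 averaged 0.268% ± 0.0271, 1.47% ± 0.0461 and 1.61% ± 0.0182 (SD, n = 2 each). The unevenness between the replicates of a heated group in the members' total share thus lay mostly in these 32 unigenes.

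**Figure D5:**
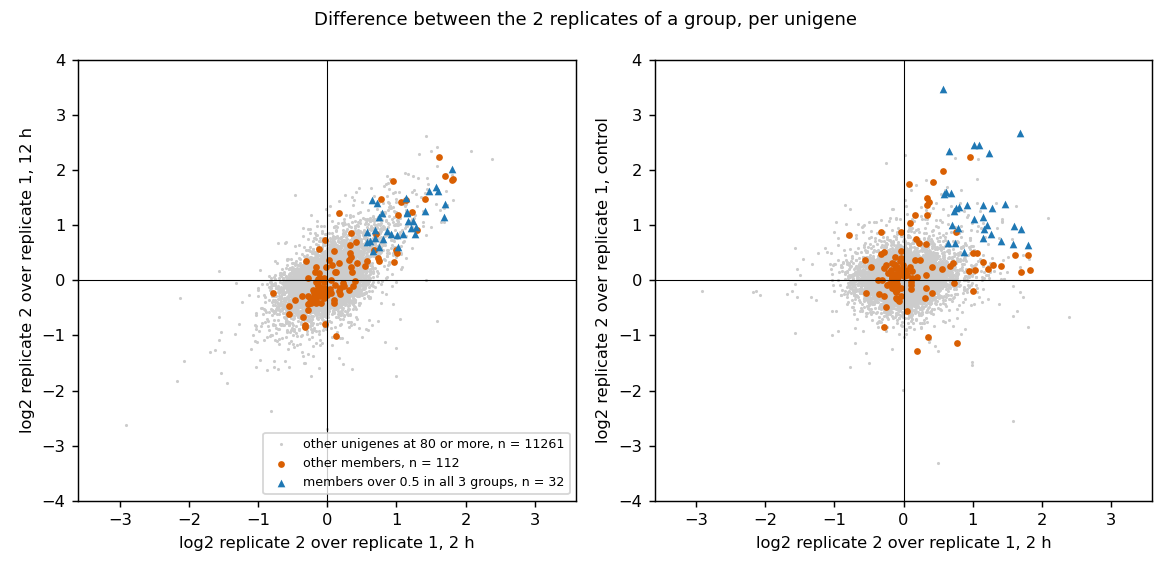
Log2 of replicate 2 over replicate 1 for each unigene with a mean of at least 80 at 2 h: after 12 h (left panel, vertical) and in the controls (right panel, vertical), both against the same ratio after 2 h (horizontal). Grey dots are unigenes that are not members, orange dots 112 members, and blue triangles the 32 members above 0.5 in all 3 groups, which lie in the upper right of both panels.

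Read within each replicate number, the 32 gave ratios like those of the group means that chose them. The same libraries made up those means and the labels do not pair libraries by number, so this is a description. Their median ratio of 2 h to control was 7.14 between the replicate 1 libraries and 5.56 between the replicate 2 libraries. Their median ratio of 12 h to 2 h was 0.992 and 1.02. In the other 112 members the first ratio was 5.39 and 5.07 and the second 0.735 and 0.716. Levels after 12 h were above those after 2 h in 17 of the 32 and in 33 of the 112. The test, which takes the difference between replicates as spread, called 7 of the 32 higher at 2 h, 12 at 12 h and 0 between 12 h and 2 h. Of the 112 it called 96, 95 and 55. Over all tested unigenes it called 14.3% higher at 2 h, 27.6% higher at 12 h and 45.7% different between 12 h and 2 h. The rule used these contrasts, so the counts are not read against these shares. The 7 fell when any control or 2 h library was left out, and the 12 when any library was. With no filter on low counts the 12 became 6, where 9.25% of all were called higher. With library totals alone they became 21, where 52.5% of all were. DESeq2, with the same groups, called 27 of the 32 higher at 2 h and 25 at 12 h. It called 8.83% and 13.8% of all unigenes with an adjusted p higher.

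Across all 144 members the replicate ratio after 12 h followed that after 2 h. The correlation over the 144 unigenes was Pearson's r = 0.881 and Spearman's rho = 0.848 between 12 h and 2 h, r = 0.446 and rho = 0.524 between 2 h and control, and r = 0.363 and rho = 0.472 between 12 h and control. Over the 11405 unigenes at 80 or more at 2 h Pearson's r was 0.571, 0.155 and 0.167. Between 12 h and 2 h it was 0.682 in the 110 partly kept, 0.638 in the 90 not kept and 0.960 in the 9 that rose further. The points share their libraries and their size factors, so the values are given as a description. In the controls 108 of 144 members were higher in replicate 2, or 75%, with 51.2% of the 11405. After 2 h these percentages were 59.0% and 43.6%, and after 12 h they were 57.6% and 40.7%. In the 90 not kept, the 110 partly kept and the 9, the control percentages were 73.3%, 60% and 44.4%. The high share in the controls was thus not particular to the members. After 2 h these 3 sets had 25.6%, 30.9% and 55.6%, and after 12 h 24.4%, 28.2% and 44.4%.

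Choosing unigenes in one set of replicates and reading them in the other gives values that did not make the choice. The rule applied to the 3 replicate 1 libraries alone chose 159 unigenes, 105 of them members. In the replicate 2 libraries their median ratio of 2 h to control was 4.65, where it had been 5.65 in the libraries that chose them. Of the 159, 155 were at least 2 times the control at 2 h in the replicate 2 libraries, 134 were at least 2 times the control at 12 h, and 132 lay within the 2-fold window. The first of these conditions held for 10.9% of the 11359 unigenes at 80 or more in the choosing 2 h library, and the window for 74.4% of them. All conditions at once were met again by 74.

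The reverse choice gave similar figures. The replicate 2 libraries chose 156 unigenes, 109 of them members. In the replicate 1 libraries the median ratio was 4.84, where it had been 5.36 in the choosing libraries, and 147 were at least 2 times the control at 2 h. At 12 h 142 were at least 2 times the control, 136 lay within the window, and 74 met all conditions again. The first condition held for 12.2% of the 11384 unigenes at 80 or more in the choosing library, and the window for 73.2%. The shares of all unigenes meeting the 12 h condition, or all conditions, in the unused libraries were not counted. By group means, 1410 of the 11405 unigenes at 80 or more at 2 h were at least 2 times the control at 12 h. Most chosen unigenes were thus raised at both times in libraries not used for the choice, while fewer passed every limit again.

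Members had ordinary implied lengths for tested unigenes. This length is calculated back from count, FPKM and library total, not read from a sequence, and can differ between libraries of 1 unigene. Their implied length had a median of 1070 bases, with quartiles of 675 and 1618, and that of all 25828 tested unigenes was 1047, with quartiles of 605 and 1673. Unigenes at 80 or more at 2 h were longer, with a median of 1474. Among members, the 36 with the highest heated levels had a median of 1669 and the 36 with the lowest 830. The implied length was under 200 bases for 7 members, and the lowest was 31.5, so single values are uncertain. In 5 members at least 1 library carried a decimal count, which a sum of whole reads does not give.

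The first part of an identifier is taken here, by the usual naming of assembled transcripts, as the assembly component, within which unigenes may share sequence and reads. The 144 members came from 131 components. One component held 4 members, 10 held 2 and 120 held 1. In all 24 members, or 16.7%, shared a component with another member, and 55, or 38.2%, with any other tested unigene, against 30.6% of all tested unigenes.

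Members of one component could be alike or differ. One pair had 393 and 498 scaled reads in the controls in one unigene and 483 and 488 in the other. After 2 h they had 2152 and 2072, and 2138.5 and 1999. Their 12 h levels were 2387 and 1996, and 2418 and 2055, so the pair had similar levels in each heated library. In the component of 4 members, the most abundant had 107 and 590 in the controls, 1085 and 2316 after 2 h, and 987 and 1773 after 12 h. The one with the lowest heated mean had 2.97 and 24.4 in the controls, 47.1 and 154 after 2 h, and 47.4 and 106 after 12 h. Another had 0 and 10.1 in the controls, 80.2 and 120 after 2 h, and 139 and 225 after 12 h, and its ratio of 12 h to 2 h was 1.82, where the other 3 had 0.747 to 0.812. All 4 were higher in replicate 2 of every group, and 3 of them were among the 32. Of the 11 components with several members, 3 held only members of the 32, 6 held none and 2 held both kinds.

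Partners in the same components that were not members were not always raised. Of 44 such tested unigenes, 22 were at least 2 times the control at 2 h, or 50%, where 12.5% of all tested unigenes were. Another 18 were within 2-fold of the control and 4 were at least 2-fold lower. Their median ratio of 2 h to control was 2.01 and of 12 h to 2 h 0.503. The component of c86879_g3, the member with the largest rise, held a partner at a mean of 4148 scaled reads in the controls, of 3019 at 2 h and of 4037 at 12 h. The component of the tenth member by heated level held a partner at 9.66 in the controls, at 689 after 2 h and at 96.3 after 12 h. Unigenes of one component thus ranged from level to sharply transient beside a member, and each of these values is uncertain if reads were shared, which was not measured.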

How the data were processed

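RNA sequencing of leaves gave 6 libraries, 2 per group. The authors deposited estimated counts per unigene, not normalized between libraries, and FPKM, which divides by unigene length and sequencing depth. DESeq 1.18.0, HTSeq 0.6.1, TopHat2 2.0.12 and Bowtie2 2.2.3 are listed, without roles, in the submitters' processing notes. The assembler is not given in the sources used here, nor is the strand setting. Columns were matched to samples by their labels.

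Scaled reads are counts over median-ratio size factors. A test for whole counts had been planned, so estimated counts were rounded, filtered by filterByExpr (minimum count 10, minimum total 15) and scaled by trimmed mean of M-values. An edgeR 4.0.16 quasi-likelihood model (R 4.3.3, robust, a mean per group, 3 residual degrees of freedom) was fitted to all 25828 unigenes and checked on simulated data with known changes in each of the 3 comparisons. Implied lengths needed 10 reads in a library.

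The members, the named unigenes' rule and the comparisons were chosen with earlier results of these data known, and the replicate difference was singled out after its values were seen. As no name is paired with an identifier, at most 2 risers and 2 fallers per comparison are named: the 2 highest at 2 h, the 2 with the highest 12 h over control among members with 10 reads in each control, and the 2 highest and 2 lowest by 12 h over 2 h. The other members are given by rank; the member leading by FPKM and the examples from shared components were chosen after their values were seen. Gene lists could not be matched. DESeq2 1.42.0, other scalings, filters, limits and omission of each library were alternatives. Library totals bear on counting error, and also on the shares of reads, on FPKM and on the scaling by totals alone.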

Additional observations from a re-analysis of the deposited data

How the results depend on the processing

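Most results kept their side under the alternatives. The rule chose 144 unigenes; other scalings of the counts, added values and level limits, and a 3-fold window, gave between 113 and 202. Leaving out a library gave 108 to 199, with 94 to 137 of the 144 among them. FPKM multiplied by 1 constant, to the median total of the scaled reads, gave 362, with 111 of the 144, and FPKM as deposited 60, with 40 of them; the floor of 80 then acts on another unit, and which unigenes this moves was not tested. A window of 1.5-fold gave 77, all among the 144. Library totals alone turned the log2 median ratio of 12 h to 2 h from -0.38 to 0.17, which follows from the shift of all unigenes; without single libraries it ran between -0.52 and -0.23. A limit of 0 between replicates in place of 0.5 gave 63 members higher in replicate 2 of all groups (13.8% of unigenes at that level), a limit of 1 gave 5 (0.0877%), and other scalings, a larger added value or FPKM 27 to 33. At the limit of 0, replicate 1 was higher in all groups in 18 members, or 12.5%, and in 19.5% of unigenes at that level. FPKM as deposited and the alternatives for the replicate difference and for the median ratio of 12 h to 2 h were chosen after seeing the data.

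Members called higher numbered 103 at 2 h and 107 at 12 h, 95 to 104 and 97 to 108 without single libraries (7.5% to 14.7% and 17.6% to 24.6% of all tested unigenes), and 136 and 132 with DESeq2 (8.83% and 13.8%). A group left with 1 library was assumed to vary like the others. Members called different between 12 h and 2 h numbered 55, where 45.7% of all tested unigenes were called different. With library totals alone they numbered 38, where 59.9% of all were called different. Of these 38, 28 were higher and 10 lower, in place of 10 higher and 45 lower. The rule bounded this contrast, so the counts are not read against these shares. With the replicate number as a block, 136, 138 and 88 members were called in the 3 comparisons (17.4% and 30.1% of all tested unigenes called higher, and 50.1% called different), and 31 of the 32 replicate-2-high members at each heat time. Over tested unigenes the replicate deviations of the groups correlated at -0.00, 0.02 and 0.27, and over those at 80 or more at 2 h at 0.155, 0.167 and 0.571. The labels do not tie libraries by number and each group has only 2, so the fit without the block stands as the main one; whether same-numbered libraries share a source was not tested. Of 80 recalculations for the named members 74 stayed within 1 SD and 5 moved further. The last, that of c92553_g1 between 12 h and 2 h, turned to -0.12 without 12 h replicate 2. Without 2 h replicate 2 the same ratio reached 1.91, which counts among the 74 because its SD was 1.61. The SD came from the same 2 libraries per group, so omitting 1 of them could hardly move a value beyond it. Staying within 1 SD in those recalculations therefore does not show that a value is stable. The median implied length was 1070 bases with a minimum of 100 reads too.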

Other observations

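The replicate difference was not limited to the members. Of the 104 unigenes at 80 or more at 2 h that were higher in replicate 2 of every group by over 0.5 on the log2 scale, 32 were members, which is 30.8% of the 104 and 22.2% of the members. The other 72 had a median ratio of 2.35 for 2 h over control and 0.847 for 12 h over 2 h. At 2 h 48 of the 72 were at least 2 times the control, or 66.7%, 2 were at least 4 times the control and none was 2-fold lower. Of all 11405 unigenes at that level 11.3% were at least 2 times the control and 580 were at least 2-fold lower. At 12 h 33 of the 72 were at least 2 times the control, where 1410 of the 11405 were. Of the 72 unigenes that are not members, most were thus at least 2 times the control at 2 h. The rise of the 32 members was set by the rule, so nothing is read from it. The floor of 80 on the 2 h mean favours unigenes raised by heat, in the 72 and in the 11405 alike. Of the 303 tested unigenes with this replicate difference, those below the floor were not examined. What the replicate numbers stand for is not given in the labels, and a cause of the difference was not tested.

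Members with the lowest heated levels were the most uneven between replicates and those with the highest the least. The absolute log2 difference between the replicates was taken as the median over members in each group and averaged over the groups. It was 0.523 in the 36 members with the lowest heated levels and 0.208 in the 36 with the highest. The groups of 36 between them had 0.341 and 0.390, from lower to higher level, so the fall was not steady. The 32 were spread over 4 groups of 36 members by level, with 9, 8, 8 and 7 from the lowest to the highest.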
